A study of Mus musculus with 40 samples.

Results

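The Bcl2 family sets whether a cell releases cytochrome c from its mitochondria and dies by apoptosis. Its transcripts were counted in whole 8-cell and 4-cell mouse embryos, 1 per library, that had received an siRNA against Rif1 (siRif1) or a control siRNA (siCon). The 10 genes examined were Bcl2, Bcl2l1, Mcl1, Bcl2l10, Bcl2l11, Bax, Bak1, Bbc3, Pmaip1 and Bid, listed by name and matched by GENCODE M21 symbol to 10 of the 55487 mouse gene entries. Of these, 8 had enough counts to be tested and 2, Bcl2 and Bak1, did not. At the 8-cell stage Bbc3 and Bcl2l10 were lower than at the 4-cell stage in embryos of both siRNAs, while no member passed the threshold in edgeR between siRif1 and siCon embryos at either stage.

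Antiapoptotic members of the family (Bcl2, Bcl2l1, Mcl1 and, in many assays, Bcl2l10) bind and restrain the effectors Bax and Bak1, which form pores in the outer mitochondrial membrane once activated. BH3-only members (Bcl2l11, Bbc3, Pmaip1 and Bid) carry stress signals: they occupy the groove of the antiapoptotic proteins through a short helix, the BH3 domain, and some of them also activate Bax and Bak1 directly. In the mouse, embryos without Mcl1 are lost around implantation, and Bcl2l10, also called Diva or Boo, is known as an oocyte and ovary transcript. RIF1 is a chromatin protein that controls the timing of DNA replication and the choice of DNA repair pathway.

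The groups were 12 siRif1 and 8 siCon embryos at the 8-cell stage, collected 70 hours after hCG injection, and 13 siRif1 and 7 siCon embryos at the 4-cell stage, collected 63 hours after hCG. Zygotes had been injected 17 to 18 hours after hCG with 20 µM siRNA, 1 product per arm, and cultured in KSOM at 37 °C under 5% CO2. The genotype label is (C57BL/6J xCBA) x DBA/2J for the first sample, and its DBA number rises by 1 with each sample up to DBA/41J. Each library was made from 1 whole embryo with SMART-seq2, and the labels do not state whether replicates stem from different litters or days, so p-values measure the spread between these embryos, which may be technical in part. Fewer cells carrying a transcript and less of it per cell cannot be told apart in a whole embryo.

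Mouse counts per library ran between 704863 and 8890551, and the median was 3186068.5. All 10 transcripts listed as cleavage embryo markers were detected in every group, and of 14 cumulus and granulosa cell genes 8 had a count in siRif1 8-cell, 3 in siCon 8-cell, 8 in siRif1 4-cell and 7 in siCon 4-cell embryos. Only 2 or 3 of the 14 per group averaged 1 CPM or more; the list summed to 170.7 to 421.4 CPM and 219.4 to 319.7 CPM in siRif1 and siCon 8-cell embryos, and to 196.2 to 287.8 CPM and 106.3 to 423 CPM in siRif1 and siCon 4-cell embryos. Ptx3, Inhba and Fshr had 0 counts in every group. In siCon 8-cell embryos the 3 genes with a count were Amhr2, Kitl and Nr5a2, so the sum there was theirs alone. Rif1 averaged 178 ± 94.5 CPM in siRif1 and 428 ± 107 CPM in siCon embryos at the 4-cell stage (SD, n = 13 and 7; CPM is each gene's counts as a rate of the scaled library size). There 11 of the 13 siRif1 embryos lay below every siCon embryo, with a log2 fold change of -1.26 (SE 0.24, edgeR adjusted p = 0.00643). At the 8-cell stage it averaged 220 ± 92.9 CPM in siRif1 and 314 ± 42.6 CPM in siCon embryos, 9 of 12 lay below every siCon embryo, and the test was not passed (-0.52, SE 0.24, edgeR adjusted p = 0.999). The siCon 4-cell embryos numbered 3 and 7 stood apart before any test. Snrpn, which is read from the paternal allele in mice, was at 1.17 and 2.89 CPM of the library total in them and at 34.5 to 104 CPM in the other 38 libraries, and the 10 oocyte and maternal transcripts summed to 440.5 and 1239 CPM against at most 350.8 CPM in the other siCon 4-cell embryos. Where a call or a value of a member turned on these 2 embryos, it is also given without them.

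The BH3 core is a feature that most of the members share and that takes part in their binding to each other. Its coding stretch is shown for the members that have a single match. A leucine, 3 further residues, a glycine or alanine and an aspartate were searched for in the protein that a script translated from the GENCODE M21 coding sequence. Of the 10 members, 8 had exactly 1 match, Pmaip1 had 2 and is not shown, and Bcl2l10 had 0. Each 30-base stretch lies within 1 coding exon of GRCm38 and is written 5′ to 3′ on the gene's strand, with the leucine codon and the 2 codons of glycine or alanine and aspartate in capitals.
Mcl1 (chr3:95659430-95659459, plus strand): gagaccCTGcggcgcgtgGGCGACggcgtg
Bcl2l1 (chr2:152829700-152829729, minus strand): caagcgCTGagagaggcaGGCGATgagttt
Bcl2 (chr1:106712578-106712607, minus strand): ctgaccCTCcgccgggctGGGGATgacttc
Bax (chr7:45466000-45466029, minus strand): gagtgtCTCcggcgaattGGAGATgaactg
Bak1 (chr17:27022534-27022563, minus strand): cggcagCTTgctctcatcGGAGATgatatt
Bcl2l11 (chr2:128147144-128147173, plus strand): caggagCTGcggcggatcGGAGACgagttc
Bbc3 (chr7:16313767-16313796, plus strand): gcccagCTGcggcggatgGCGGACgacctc
Bid (chr6:120897292-120897321, minus strand): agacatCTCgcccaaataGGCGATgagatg
In 7 of these 8 genes the capital pair begins with a glycine codon, and in Bbc3 alone it begins with the alanine codon GCG. The leucine codon was CTG in Mcl1, Bcl2l1, Bcl2l11 and Bbc3, CTC in Bcl2, Bax and Bid, and CTT in Bak1.

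Mcl1 was by far the most abundant member, and Bcl2 and Bak1 were close to absent. Per kilobase of exon, so that genes of unlike length can be compared, the level over all 40 embryos averaged 75.5 CPM per kb for Mcl1 and 25.7 CPM per kb for Bax. Bcl2l10 followed at 11.7, Bcl2l1 at 6.70 and Bid at 5.73 CPM per kb. The place of Bcl2l10 was set by the 4-cell embryos: it averaged 2.36 and 2.12 CPM per kb in siRif1 and siCon 8-cell embryos, below Bcl2l1 (7.72 and 6.26) and Bid (4.79 and 3.33), against 10.8 and 40.4 CPM per kb in siRif1 and siCon 4-cell embryos, and 7.14 CPM per kb over the 38 embryos without siCon 4-cell embryos 3 and 7. The lowest of the tested genes were Bcl2l11 at 2.96, Bbc3 at 2.43 and Pmaip1 at 1.27 CPM per kb. In each group the mean of Mcl1 less its SD lay above the mean of Bax plus its SD. Below them the neighbours did not differ beyond their spread: the SD of the level of Bcl2l10 over the 40 embryos, 24.3 CPM per kb, exceeded its mean, and those of Bcl2l1 (2.04 CPM per kb) and Bid (3.23 CPM per kb) exceeded the gap between the 2 genes.

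**Figure D1:**
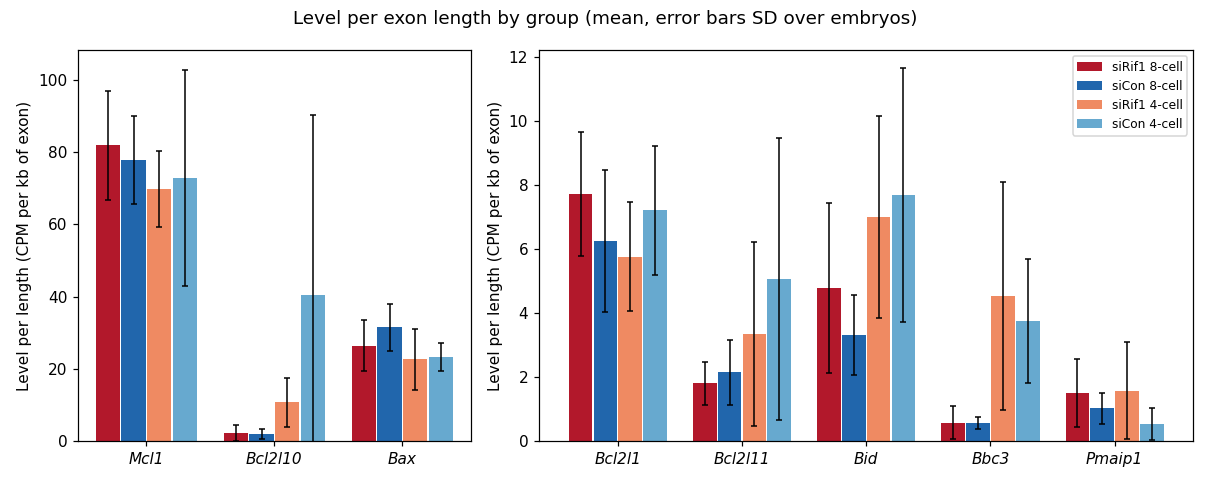
Mean level per kilobase of exon (y axis, CPM per kb; the 2 panels have different scales) of the 8 tested genes in siRif1 8-cell, siCon 8-cell, siRif1 4-cell and siCon 4-cell embryos, with error bars of 1 SD over embryos (n = 12, 8, 13 and 7). Mcl1 stands highest in every group, and the bars of Bcl2l10 and Bbc3 are short at the 8-cell stage.

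Bcl2, the founding antiapoptotic gene, had 11 counts in all over 8 of the 40 embryos and never more than 2 in an embryo. Bak1, an effector that can act in place of Bax, had 5 counts over 4 embryos, again with at most 2 in any. In siCon 4-cell embryos both had 0 counts, which allows a level of up to 0.131 CPM (3 counts over the group, counting error only). Neither entered the edgeR fit of tested genes. In the fit without a filter on low counts neither was called in any comparison, and no fold is given at these counts. Up to 18.2% of the exon bases of Bak1 are shared with Ggnbp1 on the other strand, and the libraries do not mark strand. Bak1 reads of that stretch may therefore have been left uncounted.

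Mcl1, whose protein is short-lived in many cells, varied by 15.1% to 18.5% (SD over mean) in 3 of the 4 groups and by 40.9% in siCon 4-cell embryos. Its level had a lowest, median and highest value of 198, 275 and 373 CPM in siRif1 8-cell embryos and of 204, 268 and 310 CPM in siCon 8-cell embryos. At the 4-cell stage the same values were 175, 245 and 289 CPM in siRif1 and 87.3, 267 and 380 CPM in siCon embryos. The groups overlapped throughout, and the 2 lowest embryos of all 40 were siCon 4-cell embryos 7 and 3, at 87.3 and 160 CPM against 228 to 380 CPM in the other 5 of that group. Mcl1 was not called between the stages in siRif1 (log2 fold change 0.23, SE 0.14, edgeR adjusted p = 0.215) or siCon embryos (0.10, SE 0.18, edgeR adjusted p = 0.735), and in the siCon embryos the sign turned without embryos 3 and 7 (-0.19).

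Bcl2l1, which encodes the antiapoptotic Bcl-xL, ran between 22.2 and 53.2 CPM in siRif1 8-cell embryos (median 36.1 CPM), and between 13.8 and 41.2 CPM (median 30.7 CPM) in siCon 8-cell embryos. In 4-cell embryos it ran between 11.5 and 43.2 CPM (median 27.5 CPM) after siRif1 and between 18.5 and 47.3 CPM (median 34.6 CPM) after siCon. The 4 groups overlapped widely. The stage difference was 0.41 (log2, SE 0.18) in siRif1 embryos and missed the threshold (edgeR adjusted p = 0.0789), and it was -0.21 (SE 0.23) in siCon embryos (edgeR adjusted p = 0.534). In siRif1 embryos it passed on the ERCC scale described further on (0.97, adjusted p = 0.0187) and without siRif1 4-cell embryo 9, the highest of its group (0.49, adjusted p = 0.0371). In siCon embryos the value with ERCC totals was 0.31, which is -0.17 once the shift of all genes' median is taken off.

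Bcl2l10, the oocyte-linked member, was lower at the 8-cell stage with both siRNAs. It ran between 0.253 and 10.5 CPM (median 2.37 CPM) in siRif1 8-cell embryos, against 2.60 to 28.9 CPM (median 13.0 CPM) in siRif1 4-cell embryos. In siCon embryos it ran between 0 and 5.35 CPM (median 2.58 CPM) at the 8-cell stage, against 4.57 to 175 CPM (median 16.6 CPM) at the 4-cell stage. Of the 8 siCon 8-cell embryos, 7 lay below every siCon 4-cell embryo, and of the 12 siRif1 8-cell embryos 7 lay below every siRif1 4-cell embryo. The log2 fold change of 8-cell over 4-cell was -2.28 (SE 0.51, edgeR adjusted p = 0.000818) in siRif1 embryos and -4.22 (SE 0.66, edgeR adjusted p = 6.26e-06) in siCon embryos. In the siCon 4-cell group embryos 3, 7 and 5 held 175, 66.5 and 58.4 CPM while the other 4 lay between 4.57 and 16.6 CPM. The share of counts from ERCC RNA, an addition described further on, was 4.72%, 5.10% and 7.18% in embryos 3, 7 and 5. In the other 4 it was 2.03% to 2.89%. Among siRif1 4-cell embryos the highest Bcl2l10 level, in embryo 13, went with the highest ERCC share, 5.58%. Embryo 9, next at 5.16%, held 14.0 CPM. A link of Bcl2l10 with this share was not tested. Without embryos 3 and 7 the siCon stage difference was -2.97 and still passed the threshold. The summed level of the 10 oocyte and maternal transcripts also had a lower median at the 8-cell stage with both siRNAs. Its median was 101 and 77.3 CPM in siRif1 and siCon 8-cell embryos, against 164 and 339 CPM at the 4-cell stage. It ran between 59.3 and 130 CPM in siRif1 8-cell, 58.7 and 139 CPM in siCon 8-cell, 68.8 and 223 CPM in siRif1 4-cell and 158 and 1239 CPM in siCon 4-cell embryos, with all 10 detected in every group. In siCon 4-cell embryo 3, the highest for Bcl2l10, the sum was 440.5 CPM, below the 1239 CPM of embryo 7. The part of this sum in the differences of Bcl2l10, Bcl2l11 and Bid was not tested.

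**Figure D2:**
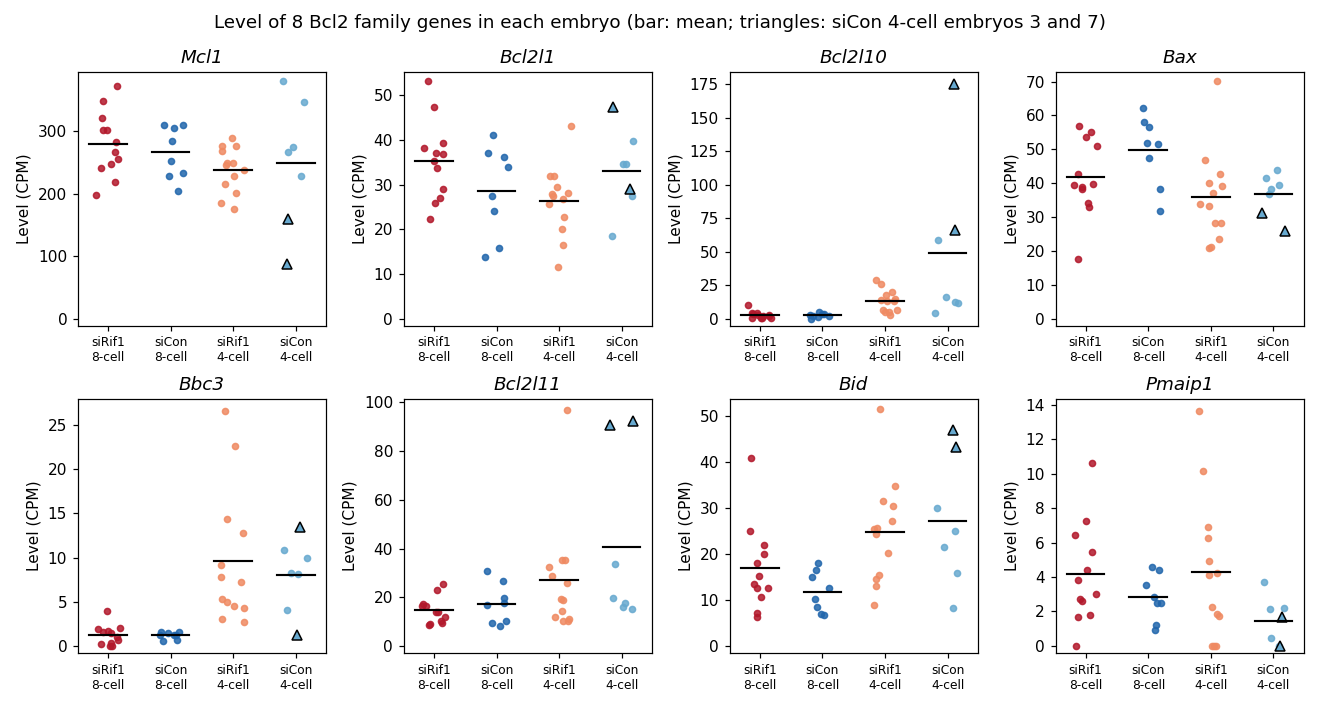
Level (y axis, CPM) of the 8 tested genes in every embryo of the siRif1 8-cell, siCon 8-cell, siRif1 4-cell and siCon 4-cell groups, 1 point per embryo with the group mean as a bar and siCon 4-cell embryos 3 and 7 as triangles. Bbc3 and Bcl2l10 lie low in nearly all 8-cell embryos, and the 2 triangles lie at or near the group's top for Bcl2l11 and Bid and at its bottom for Mcl1 and Bax.

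Bax, the effector with a measurable transcript, was among the steadier members. It ran between 17.7 and 56.8 CPM (median 39.6 CPM) in siRif1 8-cell embryos, and between 31.9 and 62.2 CPM (median 51.6 CPM) in siCon 8-cell embryos. At the 4-cell stage it ran between 20.8 and 70.2 CPM (median 33.9 CPM) after siRif1, and between 25.9 and 43.8 CPM (median 38.2 CPM) after siCon. In siCon embryos 6 of 8 at the 8-cell stage lay above every 4-cell embryo, yet the stage difference did not pass the threshold (0.44, SE 0.22, edgeR adjusted p = 0.126). In siRif1 embryos it was 0.22 (SE 0.17, edgeR adjusted p = 0.34). Gm45808 shares 12.2% of Bax exon bases on the same strand, so a part of the Bax reads may have been left uncounted.

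Bbc3, which encodes the BH3-only protein PUMA and is a known target of p53, was lower at the 8-cell stage with both siRNAs. It ran between 0 and 3.93 CPM (median 1.22 CPM) in siRif1 8-cell embryos, against 2.77 to 26.6 CPM (median 7.19 CPM) in siRif1 4-cell embryos. In siCon embryos it ran between 0.573 and 1.62 CPM (median 1.25 CPM) at the 8-cell stage, against 1.30 to 13.4 CPM (median 8.28 CPM) at the 4-cell stage. Of the 12 siRif1 8-cell embryos 11 lay below every siRif1 4-cell embryo, the exception being embryo 11 at 3.93 CPM, and 6 of the 7 siCon 4-cell embryos lay above every siCon 8-cell embryo, the exception being embryo 7 at 1.30 CPM. On the log2 scale the difference was -2.98 (SE 0.45, edgeR adjusted p = 2.19e-06) in siRif1 and -2.71 (SE 0.56, edgeR adjusted p = 0.000248) in siCon embryos, a level 7.87 and 6.54 times lower at the 8-cell stage. These levels rest on few reads, since an 8-cell embryo had at most 6 Bbc3 counts and 2 of the siRif1 8-cell embryos had 0.

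Bcl2l11, which encodes the BH3-only protein BIM, passed the threshold for a lower level at the 8-cell stage with both siRNAs, but the call rested on a few embryos. It ran between 8.41 and 25.3 CPM (median 13.9 CPM) in siRif1 8-cell embryos, against 10.2 to 96.9 CPM (median 19.3 CPM) in siRif1 4-cell embryos. In siCon embryos it ran between 8.03 and 30.7 CPM (median 17.2 CPM) at the 8-cell stage, against 15.1 to 92.5 CPM (median 19.9 CPM) at the 4-cell stage. The difference was -0.88 (log2, SE 0.33, edgeR adjusted p = 0.0395) in siRif1 and -1.23 (SE 0.42, edgeR adjusted p = 0.0234) in siCon embryos. Embryos 3 and 7 of the siCon 4-cell group held 90.6 and 92.5 CPM, against 15.1 to 33.6 CPM in the other 5, which lay within the range of the 8-cell embryos except for embryo 5 at 33.6 CPM. Without both, the siCon difference was -0.24 (adjusted p = 0.711). Without either one it was -0.89 to -0.90 and also missed the threshold. In siRif1 embryos the 4-cell embryo 9, at 96.9 CPM, was the highest of all 40, and without it the difference was -0.54 (adjusted p = 0.173). Leaving out 1 siRif1 embryo at a time, the call held in 15 of 25 fits and was lost without 4-cell embryo 6, 8, 9 or 12 or 8-cell embryo 1, 2, 7, 8, 11 or 12. With each siRNA it held in 5 of 9 other alternatives, and the value stayed below 0 in all of them.

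Bid, which links death receptors to mitochondria once cut by caspase 8, was lower at the 8-cell stage in siCon embryos. It ran between 6.66 and 18.0 CPM (median 11.4 CPM) in siCon 8-cell embryos, against 8.28 to 47.1 CPM (median 25.1 CPM) in siCon 4-cell embryos, and 5 of the 7 at the 4-cell stage lay above every 8-cell embryo. The difference was -1.21 (log2, SE 0.35, edgeR adjusted p = 0.00711). Without siCon 4-cell embryos 3 and 7, which held 47.1 and 43.4 CPM, it was -0.79 and missed the threshold (adjusted p = 0.112). In siRif1 embryos Bid ran between 6.38 and 40.9 CPM (median 14.3 CPM) at the 8-cell stage, against 9.00 to 51.5 CPM (median 25.5 CPM) at the 4-cell stage, with a difference of -0.56 (SE 0.27, edgeR adjusted p = 0.11). It passed in siRif1 embryos without 8-cell embryo 7, the highest 8-cell value at 40.9 CPM (-0.76, adjusted p = 0.026). Bcl2l13, whose exons run over 17.7% of the Bid exon bases on the other strand, was itself lower at the 8-cell stage in both siRNA groups, and reads of that stretch cannot be assigned to either gene.

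Pmaip1, which encodes the BH3-only protein NOXA, a partner of MCL1, was the lowest tested member per kb over all 40 embryos, although at the 8-cell stage Bbc3 was lower still (0.589 and 0.565 CPM per kb in siRif1 and siCon embryos, against 1.52 and 1.03 for Pmaip1), and 6 of the 40 embryos had 0 counts. It ran between 0 and 10.6 CPM (median 3.42 CPM) in siRif1 8-cell embryos, against 0.951 to 4.59 CPM (median 2.69 CPM) in siCon 8-cell embryos. At the 4-cell stage it ran between 0 and 13.6 CPM (median 4.11 CPM) in siRif1 embryos, against 0 to 3.69 CPM (median 1.71 CPM) in siCon embryos. Between the stages it was not called (-0.08 in siRif1 and 0.93 in siCon embryos, edgeR adjusted p = 0.927 and 0.351), and the siRif1 value with ERCC totals was 0.30, which is -0.16 less that shift.

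Of the siRif1 4-cell embryos 1 held several extremes at the same time, a pattern picked out after its values were seen. Embryo 9 was the highest of its group for Bcl2l1 (43.2 CPM), Bcl2l11 (96.9 CPM), Bid (51.5 CPM) and Pmaip1 (13.6 CPM), and next to the lowest for Bax (21.2 CPM, against 20.8 CPM in embryo 3). Its Mcl1 level, 201 CPM, was below the group's median of 245 CPM. Snrpn stood at 48.0 CPM of the library total and the mouse counts at 2126150, both within the range of the other siRif1 4-cell embryos. The mouse counts were the lowest of the group but for embryo 5 (704863). The share of counts from ERCC RNA, 5.16%, was the highest but for embryo 13 (5.58%). A link of these with the extremes was not tested.

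Set beside all 11844 genes tested, the stage calls among members lay in 1 direction. In siCon embryos 4 of the 8 members were lower at the 8-cell stage and 0 were higher, where 30% of all genes were called in either direction, 16.3% lower and 13.7% higher. In siRif1 embryos 3 of the 8 were lower and 0 higher, where 29.8% of all genes were called, 15.3% lower and 14.5% higher. The median log2 fold change of the members was -0.32 in siRif1 and -0.71 in siCon embryos, against -0.01 and -0.03 over all genes. Without siCon 4-cell embryos 3 and 7 the siCon count was 2 of 8, where 21.6% of 12223 genes tested were called. Across all settings tried that gave a value, Bbc3 and Bcl2l10 stayed past the threshold and lower at the 8-cell stage in both siRNA groups: in 9 of 9 alternatives for Bcl2l10 in each group, in 8 of 8 (siCon) and 9 of 9 (siRif1) for Bbc3, and on leaving out any 1 of the 25 siRif1 or 15 siCon embryos. These settings reuse the same embryos. Bbc3 had at most 6 counts in any 8-cell embryo, under the filter's minimum count of 10. The filter therefore kept Bbc3 through the 4-cell embryos, where it was high, and its direction is no independent support. It also passed in the fit without a filter.

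Library sizes are relative, and the ERCC RNA added to the lysis buffer gives another scale. When size factors were set from ERCC totals, the median log2 fold change of all genes between the stages became 0.46 in siRif1 and 0.49 in siCon embryos, and of the genes called, 86.1% were higher at the 8-cell stage in siRif1 and 80.9% in siCon embryos, against 48.7% and 45.8% with library sizes. On that scale Bbc3 was still lower at the 8-cell stage (-2.81 in siRif1, -2.24 in siCon) and so was Bcl2l10 (-2.02 and -3.27). Bcl2l11 no longer passed in siRif1 (-0.36) or siCon embryos (-0.43), at -0.82 and -0.91 relative to the shifted median. Bid no longer passed in siCon embryos (-0.63, or -1.11 relative to the median), and in siRif1 embryos, where it had not been called, it was at 0.00, or -0.46 relative to the median.

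**Figure D3:**
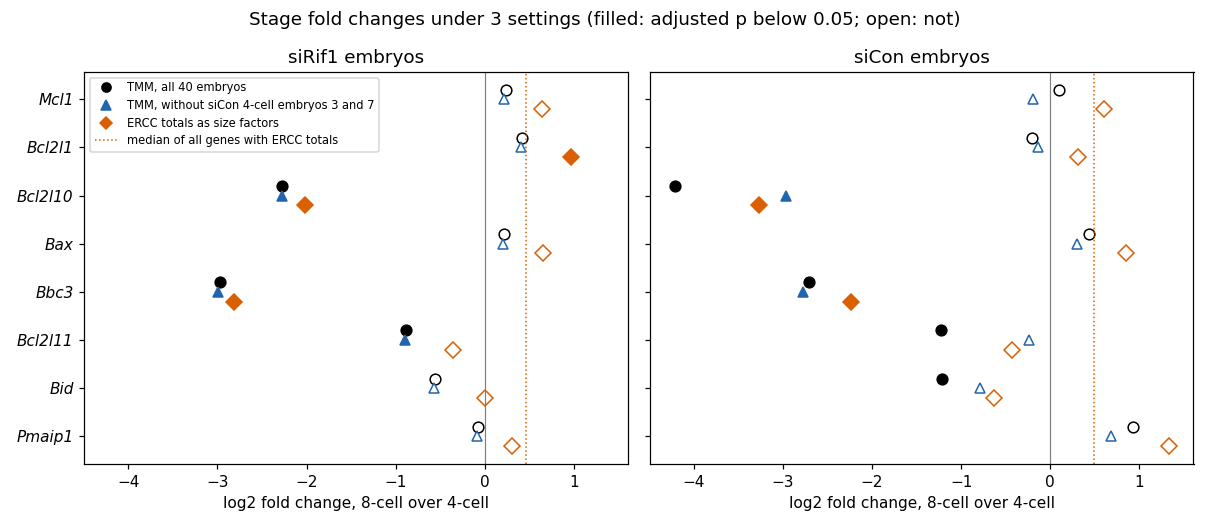
Log2 fold change of 8-cell over 4-cell embryos (x axis) of the 8 tested genes in siRif1 (left) and siCon (right) embryos under 3 settings, filled where the adjusted p was below 0.05; the dotted line is the median of all genes with ERCC totals (0.46 and 0.49). Bbc3 and Bcl2l10 stay filled and far left under each setting, while Bcl2l11 and Bid in siCon embryos are filled in the fit of all 40 embryos only.

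In sums over the classes Mcl1 was the main part of the antiapoptotic sum and Bid the largest part of the BH3-only sum, on average over each group. The 4 antiapoptotic genes summed to 91.9 ± 15.3 CPM per kb in siRif1 8-cell and 86.2 ± 11.8 CPM per kb in siCon 8-cell embryos, against 86.3 ± 9.61 and 121 ± 44.6 CPM per kb in siRif1 and siCon 4-cell embryos (SD, n = 12, 8, 13 and 7). Mcl1 made up 88.8% of that sum in siRif1 8-cell, 90.1% in siCon 8-cell, 80.7% in siRif1 4-cell and 65.0% in siCon 4-cell embryos, with a range over the siCon 4-cell embryos of 23.8% to 89.5%. Without siCon 4-cell embryos 3 and 7 the antiapoptotic sum of that group was 111 ± 34.6 CPM per kb and the Mcl1 share 80.5% (n = 5). The 4 BH3-only genes summed to 8.72 ± 2.91 and 7.09 ± 1.49 CPM per kb in siRif1 and siCon 8-cell embryos, against 16.5 ± 8.30 and 17.1 ± 8.06 CPM per kb in siRif1 and siCon 4-cell embryos (12.7 ± 2.89 CPM per kb in siCon 4-cell embryos without embryos 3 and 7). Bid was on average the largest part of it, at 53.3% and 46.2% in siRif1 and siCon 8-cell and 45.3% and 44.3% in siRif1 and siCon 4-cell embryos. Bbc3 held 8.16% and 8.50% of the BH3-only sum in siRif1 and siCon embryos at the 8-cell stage, against 26.6% and 25.1% at the 4-cell stage. These sums are descriptions of the members listed, with no test.

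The question of the study was what depletion of Rif1 changes, and for this family no member passed the threshold in edgeR. At the 4-cell stage 0 of 8 members were called by edgeR, where 0.566% of all genes were (0.127% higher and 0.439% lower), and 2 had an unadjusted p below 0.05, where 11.1% of all genes did. One of these was Bcl2l10, at 13.2 ± 8.22 CPM in siRif1 and 49.3 ± 60.7 CPM in siCon embryos (SD, n = 13 and 7), a log2 fold change of -1.89 (SE 0.50, edgeR adjusted p = 0.0639). DESeq2 called it (-1.95, adjusted p = 0.0218) and limma-voom called 0 members. The value moved to -0.63 without siCon embryos 3 and 7 (adjusted p = 0.879), and 3 of the 7 siCon embryos lay above every siRif1 embryo. The other was Pmaip1, at 4.32 ± 4.13 CPM in siRif1 and 1.45 ± 1.37 CPM in siCon embryos, and 7 of the 13 lay above every siCon embryo (log2 fold change 1.57, SE 0.68, edgeR adjusted p = 0.359). Its counts were few, at most 48 in an siRif1 and 10 in an siCon 4-cell embryo.

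At the 8-cell stage 0 of 8 members were called by edgeR, DESeq2 or limma-voom, where edgeR called 0.00844% of all genes, and 0 had an unadjusted p below 0.05, where 2.95% of all genes did. For the abundant genes an approximate interval of the difference reached 1.96 SE each side of the log2 fold change. It was -0.25 to 0.39 for Mcl1, -0.63 to 0.12 for Bax and -0.10 to 0.72 for Bcl2l1. At the 4-cell stage the intervals of the same genes were -0.39 to 0.26, -0.43 to 0.36 and -0.73 to 0.10. For Bbc3 the interval was wider, -1.08 to 1.12 at the 8-cell stage and -0.61 to 1.18 at the 4-cell stage. A rise of 1 on the log2 scale lay within it at both stages. Bid at the 8-cell stage averaged 17.0 ± 9.41 CPM in siRif1 and 11.8 ± 4.41 CPM in siCon embryos, with 5 of 12 siRif1 embryos above every siCon embryo and a difference that was not called (0.51, SE 0.31, edgeR adjusted p = 0.999). The 4-cell directions of Bcl2l11 and Bid, -0.59 and -0.14, turned to 0.41 and 0.29 without siCon embryos 3 and 7.

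**Figure D4:**
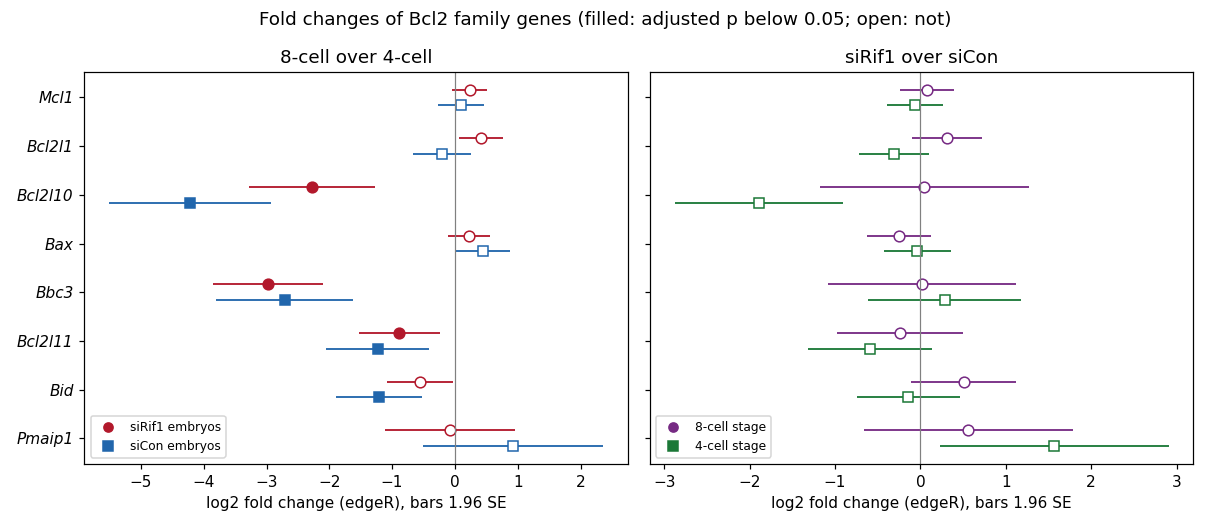
Log2 fold changes (x axis) of the 8 tested genes for 8-cell over 4-cell embryos by siRNA (left) and for siRif1 over siCon embryos by stage (right); bars reach 1.96 SE each side and filled points have an edgeR adjusted p below 0.05. Filled points stand on the left panel only, for Bbc3, Bcl2l10 and Bcl2l11 with both siRNAs and for Bid in siCon embryos.

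Whether the siRif1 difference itself changed between the stages was tested as an interaction. No member was called by edgeR (0 of 8, where 0% of all genes were), DESeq2 or limma-voom, and 2 had an unadjusted p below 0.05 in edgeR, where 6.2% of all genes did: Bcl2l10 (1.94, SE 0.81, adjusted p = 0.708) and Bcl2l1 (0.62, SE 0.30, adjusted p = 0.773). Without siCon 4-cell embryos 3 and 7 the interaction of Bcl2l10 was 0.69 (adjusted p = 0.999) and that of Bcl2l1 0.54, and on leaving out 1 embryo at a time that of Bcl2l10 ran between 1.14 and 2.18, the lowest without siCon 4-cell embryo 3. It was 0.74 with limma-voom and 1.25 with ERCC totals. The larger stage difference of Bcl2l10 in siCon than in siRif1 embryos, and the call of Bid in siCon embryos only, were therefore not shown to differ between the siRNAs.

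The rest of the pathway was read from 4 lists of genes, none of which had a gene called by edgeR between siRif1 and siCon embryos or for the interaction. DESeq2 called 1, the BH3-only gene Bad, which was higher in siRif1 embryos at the 4-cell stage (0.85, adjusted p = 0.0275); edgeR also called Bad without siCon 4-cell embryo 1 (1.13, adjusted p = 0.00759), Stat3 without siRif1 4-cell embryo 9 (-1.76, adjusted p = 0.0119) and Trp73 without a filter on low counts (-3.14, adjusted p = 0.0439). Of 19 further genes of the Bcl2 family or of partner proteins (such as Bnip2 and Bcap31), 11 were tested. At the 8-cell stage 3 were higher and 3 lower in siRif1 embryos, and 3 higher and 3 lower in siCon embryos (1 and 1 without siCon 4-cell embryos 3 and 7). Of all genes tested, 29.8% were called in siRif1 and 30% in siCon embryos (21.6% without embryos 3 and 7). Bnip3l, a mitophagy receptor, was higher in both (0.41 in siRif1, edgeR adjusted p = 0.00374; 0.46 in siCon, edgeR adjusted p = 0.011), and Bcl2l13, a mitochondrial member with a role in mitophagy, was lower in both (-0.70, edgeR adjusted p = 0.000971; -0.78, edgeR adjusted p = 0.00381). Bok, an effector relative of Bax, was higher in siRif1 embryos, at 86.3 ± 14.3 CPM at the 8-cell and 37.9 ± 22.6 CPM at the 4-cell stage (1.18, edgeR adjusted p = 0.00526). Bad, a BH3-only gene, was higher in siCon embryos, at 35.5 ± 8.36 CPM at the 8-cell and 16.1 ± 9.85 CPM at the 4-cell stage (1.14, edgeR adjusted p = 0.00105), and 20.5% of its exon bases are shared with Gpr137 on the other strand. Bnip2 was lower with both siRNAs (-0.88 in siRif1, edgeR adjusted p = 0.000962; -0.80 in siCon, edgeR adjusted p = 0.0168). With ERCC totals 3 were higher and 0 lower in siRif1, and 1 higher and 0 lower in siCon embryos. Of all genes, 26.8% and 18.8% were called on that scale.

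At the mitochondria and downstream of them, 22 of 24 mitochondrial apoptosis and caspase genes were tested. With each siRNA 3 were higher and 1 lower at the 8-cell stage (1 and 1 in siCon embryos without embryos 3 and 7). With ERCC totals 7 were higher and 0 lower in siRif1 embryos, and 2 and 0 in siCon embryos. Of all genes, 29.8% were called in siRif1 and 30% in siCon embryos (21.6% without embryos 3 and 7). With ERCC totals these shares were 26.8% and 18.8%. Of the 22, the gene lower with both siRNAs was Apaf1, the scaffold that cytochrome c assembles into the apoptosome. It averaged 34.7 ± 11.1 CPM in siRif1 8-cell against 74.1 ± 12.7 CPM in siRif1 4-cell embryos (-1.09, SE 0.17, edgeR adjusted p = 5.72e-06), and 31.2 ± 11.6 CPM in siCon 8-cell against 78.4 ± 25.6 CPM in siCon 4-cell embryos (-1.33, SE 0.22, edgeR adjusted p = 1.68e-05). With ERCC totals it kept its sign and missed the threshold (-0.56 and -0.97, adjusted p = 0.187 and 0.0883). Dffb, the caspase-activated nuclease, was higher in siRif1 embryos (0.71, edgeR adjusted p = 0.0154), as was Vdac1, a pore of the outer mitochondrial membrane (0.34, edgeR adjusted p = 0.0213). In siCon embryos the executioner Casp6 (1.03, edgeR adjusted p = 0.0115) and Mtch2, a mitochondrial receptor for truncated BID (0.70, edgeR adjusted p = 0.000442), were higher. Of 13 death receptor genes 8 were tested, and 0 were called between the stages with either siRNA by edgeR with library sizes or by DESeq2. In siCon embryos Tradd, a death receptor adaptor, passed with limma-voom (1.24, adjusted p = 0.0476) and with ERCC totals in edgeR (1.87, adjusted p = 0.041), and Casp8 passed without a filter on low counts (-3.57, adjusted p = 0.0344).

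Among 29 regulators of Bcl2 family genes and proteins, 24 were tested; 4 were higher and 4 lower in siRif1 embryos at the 8-cell stage, and 5 higher and 6 lower in siCon embryos (4 and 4 without siCon 4-cell embryos 3 and 7), where 29.8% and 30% of all genes were called in either direction. Mdm4 and Mdm2, which hold p53 in check, were both lower. Mdm4 averaged 145 ± 41.1 CPM in siRif1 8-cell against 299 ± 82.8 CPM in siRif1 4-cell embryos (-1.05, SE 0.18, edgeR adjusted p = 1.33e-05), and 116 ± 26.9 CPM in siCon 8-cell against 406 ± 237 CPM in siCon 4-cell embryos (-1.81, SE 0.23, edgeR adjusted p = 1.21e-07). Mdm2, itself a p53 target, changed by -0.81 in siRif1 (edgeR adjusted p = 0.00166) and -1.24 in siCon embryos (edgeR adjusted p = 0.000226). Foxo3, a transcription factor that can drive Bcl2l11 and Bbc3, was higher, at 184 ± 70.8 CPM in siRif1 8-cell against 82.1 ± 35.6 CPM in siRif1 4-cell embryos (1.17, edgeR adjusted p = 3.56e-05), and at 191 ± 47.0 CPM in siCon 8-cell against 72.2 ± 26.0 CPM in siCon 4-cell embryos (1.41, edgeR adjusted p = 0.000135). Bag1, a co-chaperone that binds BCL2, was higher in siCon embryos (0.65, edgeR adjusted p = 0.00462), and Atf4, a stress transcription factor, in siRif1 embryos (0.39, edgeR adjusted p = 0.0169). With ERCC totals the counts of the 24 became 7 higher and 0 lower in siRif1 and 6 higher and 1 lower in siCon embryos. Of all genes, 26.8% and 18.8% were then called. Among the genes named from the 4 lists that were lower at the 8-cell stage, Mdm4 in siCon embryos alone still passed on that scale (-1.24, adjusted p = 0.00859). Without siCon 4-cell embryos 3 and 7 the siCon calls of Bnip3l (0.25, adjusted p = 0.159), Bnip2 (-0.43, adjusted p = 0.241) and Casp6 (0.64, adjusted p = 0.0955) were lost.

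The genes whose level followed each called member most closely over the 40 embryos were found by Spearman correlation of log2 CPM. They are given as a description, since stage and depth differ among the embryos and can raise a correlation over all 40. Bcl2l10 was followed by Btg4, an oocyte gene in the list of maternal transcripts (0.89; 0.82 within the 20 4-cell and 0.68 within the 20 8-cell embryos), Gm1965 (0.87) and Smim14 (0.86). Bbc3 was followed by Wdcp (0.83; 0.40 within 4-cell and 0.47 within 8-cell embryos), Pgpep1 and Ica1l (0.82 each). Bid was followed by Fgf4 (0.74; 0.62 within 4-cell and 0.77 within 8-cell embryos), Gpam (0.70) and Ube2t (0.69), and Bcl2l11 by Manea (0.70; 0.74 within 4-cell and 0.49 within 8-cell embryos), Ncdn (0.66) and Rc3h1 (0.65). Among the 4 called members themselves the highest Spearman correlation of a pair was 0.28 within 4-cell and 0.38 within 8-cell embryos, and Bbc3 and Bid had -0.40 within 8-cell embryos.

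Promoter sequence is shown for the 2 BH3-only genes called with both siRNAs and for Mcl1, which was not called, so that they can be set side by side. The RefSeq table (GRCm38.p6) held 13 starts of 8 members and none of Bcl2l10 or Pmaip1. The 250 bases before the first listed start are given 5′ to 3′ on the gene's strand, with each match to the GC box GGGCGG on either strand in capitals and each of 2 overlapping matches counted. The Bbc3 stretch lies in an intron of a longer GENCODE M21 transcript of that gene, and the other 2 lie before the annotated gene.
Bbc3 (chr7:16309333-16309582, plus strand): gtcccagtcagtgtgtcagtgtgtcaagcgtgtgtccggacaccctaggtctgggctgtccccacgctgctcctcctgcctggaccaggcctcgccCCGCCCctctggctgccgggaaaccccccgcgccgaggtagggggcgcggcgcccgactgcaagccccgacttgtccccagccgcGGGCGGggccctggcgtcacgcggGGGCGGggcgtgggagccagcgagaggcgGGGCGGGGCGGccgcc
Bcl2l11 (chr2:128125788-128126037, plus strand): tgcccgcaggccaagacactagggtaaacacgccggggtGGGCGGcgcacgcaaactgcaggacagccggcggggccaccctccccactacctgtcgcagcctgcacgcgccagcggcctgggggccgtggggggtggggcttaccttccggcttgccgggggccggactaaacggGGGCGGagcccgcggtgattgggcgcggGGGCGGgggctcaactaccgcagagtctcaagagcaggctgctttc
Mcl1 (chr3:95658471-95658720, plus strand): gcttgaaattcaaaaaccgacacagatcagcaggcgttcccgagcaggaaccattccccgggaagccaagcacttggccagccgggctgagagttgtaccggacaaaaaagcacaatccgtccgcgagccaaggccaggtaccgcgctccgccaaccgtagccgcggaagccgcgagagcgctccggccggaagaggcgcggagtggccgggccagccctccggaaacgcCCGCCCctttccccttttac
The Bbc3 stretch held 5 GC boxes, the Bcl2l11 stretch 3 and the Mcl1 stretch 1. The number depended on the start: before its other listed starts Bbc3 had 1 and 7, and Bcl2l11 had 2. The GC content of the stretches shown was 76.4%, 72% and 64.4%, in the same order, against a median of 52.4% over 32851 promoters. A GC box stood before 9 of the 13 starts of members, where 32.7% of all promoters held 1. By gene, 6 of the 8 members had a GC box before at least 1 start. The p53 half-site was found before the Bax start alone among members and in 7.13% of all promoters. A match is a description of these letters and says nothing of binding.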

How the data were processed

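Single-embryo SMART-seq2 libraries, which mark neither strand nor molecules, were made for 40 embryos in 4 groups taken from the sample titles. The authors deposited raw read counts per gene, made with STAR 2.7.6a on GRCm38, as the submitters' processing notes name them; which annotation release they counted on is not stated in what was used here. The unstranded counts were used, since 49.7% to 51.2% of stranded counts fell on 1 strand. Each table held 55487 mouse genes, 55227 of them named by GENCODE M21, with 92 ERCC entries and 4 summary entries that were kept out of library sizes.

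Computed here: edgeR 4.0.16 (R 4.3.3) with TMM scaling, filterByExpr at a minimum count of 10, a robust quasi-likelihood fit of all 40 libraries with 1 coefficient per group, and Benjamini-Hochberg adjustment over 11844 genes with a threshold of 0.05. CPM uses TMM-scaled library sizes, and a level per kb divides by the union of M21 exons. The step was tested on simulated counts. Alternatives were DESeq2 1.42.0, limma-voom 3.58.1 with quality weights, DESeq2-type RLE factors, ERCC totals as size factors, no filter, the compared groups alone, a replicate block, and fits without doubted, shallow or single libraries. Same-numbered embryos did not deviate together (of the pairs, 1 of 7, 2 of 8, 0 of 7 and 2 of 12 had a correlation over 0.1), so numbers were not used as pairs. No 2 libraries of a group agreed within sampling noise (193 pairs). Labels give no batch. Floors cover counting error only, while intervals rest on the spread between embryos in the fit. Each edgeR SE was worked back as the absolute log2 fold change over the square root of the test's F statistic. SE and intervals are therefore approximate, most of all where counts are few or the change is small.

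The members, the pathway and marker lists and the rule for named genes (all members, up to 2 called genes each way per list, and the 3 genes most like each called member) were chosen with earlier results of these data known. Coding stretches were read from M21 transcripts, promoters from RefSeq. Sequence of genes on chromosome 18 is not shown here.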

Additional observations from a re-analysis of the deposited data

Results flagged for a closer look

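Of 16 groups of 7 or 8 embryos examined, 1 held an embryo far from the others: Bcl2l10 was at 175.3 CPM in siCon 4-cell embryo 3, against 4.57 to 66.5 CPM in the other 6 of its group. The gap took 0.637 of the whole range, above Dixon's critical value for 7 values. Chance flags about 1 in 20 such groups where the values are normally distributed. Here the SD of the group, 60.7 CPM, exceeded its mean, 49.3 CPM, so that rate may not hold for these untransformed levels.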

How the results depend on the processing

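Bbc3 and Bcl2l10 were lower at the 8-cell stage and past the threshold under every alternative that gave a value, with 1 embryo left out in turn included. The siCon stage count of 4 members became 2 (Bbc3 and Bcl2l10) with ERCC totals and without siCon 4-cell embryos 3 and 7; the cause was not tested. These 2 fits called 18.8% and 21.6% of all genes. The siRif1 stage count was 2 or 3, but with ERCC totals the third was Bcl2l1 (higher) and with limma-voom it was Bid. At the 4-cell stage the siRif1 against siCon count was 1 (Bcl2l10) by DESeq2, and 0 to 1 on leaving out 1 embryo (1 without siCon 4-cell embryo 1, 2, 4 or 6). With the replicate block 4 members were called between stages in siCon and 2 in siRif1 embryos, against 26.6% and 26.3% of all genes.

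Members not called changed sign as follows. With ERCC totals: Mcl1 at 4-cell (0.042), Bcl2l10 (-0.13) and Bbc3 (-0.061) at 8-cell, Bcl2l1 (0.31) between siCon and Pmaip1 (0.30) between siRif1 stages; relative to the shifted median of all genes the last 2 kept their sign (-0.17 and -0.16). With the replicate block: Mcl1 (0.024) and Bbc3 (-0.10) at 4-cell, Bcl2l10 (-0.39) and Bbc3 (-0.52) at 8-cell. Without siCon 4-cell embryos 3 and 7: Bcl2l11 (0.41) and Bid (0.29) at 4-cell, Mcl1 (-0.19) between siCon stages, Bcl2l11 (-0.65) in the interaction. With limma-voom: Bcl2l11 (0.030) at 4-cell, Bbc3 (-0.39) at 8-cell, Mcl1 (-0.0010) between siCon and Pmaip1 (0.27) between siRif1 stages, Bcl2l11 (-0.19) in the interaction. On leaving out 1 embryo the 4-cell values ran from -0.16 to 0.014 (Bax), -0.30 to 0.043 (Bid) and -0.21 to 0.065 (Mcl1), the 8-cell values from -0.21 to 0.15 (Bbc3) and -0.27 to 0.28 (Bcl2l10), and the stage values from -0.053 to 0.23 (Mcl1, siCon) and -0.31 to 0.18 (Pmaip1, siRif1).

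Over all genes, the 4-cell count of 67 was between 0 (replicate block) and 322 (no filter), the siCon stage count of 3554 was 2224 with ERCC totals, and DESeq2 called 10 for the interaction where edgeR called 0. Bbc3 and Pmaip1 were not kept in the siCon stage fit of the compared groups alone, nor Bbc3 and Bcl2l10 in the 8-cell one; no such fit was made for the interaction. The planned exclusion of libraries with Snrpn under 1 CPM removed none and was not run. Depth limits Bbc3, Pmaip1 and 8-cell Bcl2l10, which rest on few counts per embryo.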
